A study of Mus musculus with 4 samples.

Results

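The BCL2 family was described in the retina of 3-week-old mice through 10 of its genes, chosen by symbol: Bcl2, Bcl2l1, Mcl1, Bax, Bak1, Bcl2l11, Bbc3, Bid, Bad and Pmaip1. All 10 were found among the 52636 genes of the deposited table. RNA sequencing of polyadenylated retinal RNA gave 4 libraries, 2 from mice carrying Q344X, a premature stop in rhodopsin known from autosomal dominant retinitis pigmentosa, and 2 from wild-type mice (WT). All mice were 3 weeks old, and the labels name no treatment. The origin of the allele, the number of copies carried and the sex, strain and litter of the animals are not stated there. The design text gives 2 animals per genotype, kept after others were dropped for RNA quality or as outliers, while the extraction protocol speaks of 3 Q344X mice. Since nothing ties a library to 1 animal, the p-values measure only the spread between these libraries.

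Proteins of the BCL2 family control whether the outer mitochondrial membrane is opened, the step that commits a cell to intrinsic apoptosis. Pro-survival members hold the effectors BAX and BAK in check, and BH3-only proteins, made or activated under stress, bind the pro-survival members or the effectors and release that block. In the retina, photoreceptors are lost by programmed cell death in inherited degenerations, and BAX and BAK act in the developmental death of retinal neurons.

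The BH3 motif is what the whole family shares. The stretch of messenger RNA that encodes it is shown for the 4 genes that passed the test between genotypes. It is also shown for Mcl1, the highest of the 10 genes per kilobase of exon, and for Bcl2l11, to which the others are compared. A search of the longest coding transcript of each gene (GENCODE M21, GRCm38) for a leucine followed at fixed spacing by a small residue and an aspartate gave 1 match in each of the 6. The capitals mark the 21 bases that encode this core.
Bcl2: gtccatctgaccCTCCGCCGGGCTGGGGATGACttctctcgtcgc
Mcl1: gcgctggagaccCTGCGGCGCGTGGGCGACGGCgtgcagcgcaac
Bax: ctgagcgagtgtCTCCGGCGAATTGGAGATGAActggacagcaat
Bcl2l11: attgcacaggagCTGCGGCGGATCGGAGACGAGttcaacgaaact
Bbc3: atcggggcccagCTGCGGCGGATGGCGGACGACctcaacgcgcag
Bid: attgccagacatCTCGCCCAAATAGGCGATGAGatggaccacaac

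Each of these stretches lies within 1 coding exon. That of Bcl2 is at chr1:106712569-106712613 on the minus strand in exon 1, that of Mcl1 at chr3:95659424-95659468 on the plus strand in exon 1, and that of Bax at chr7:45465991-45466035 on the minus strand in exon 3. Those of Bcl2l11 (chr2:128147138-128147182, plus strand) and Bbc3 (chr7:16313761-16313805, plus strand) are in exon 3, and that of Bid (chr6:120897283-120897327, minus strand) is in exon 4. The core of Bbc3 had 17 of its 21 bases in common with that of Bcl2l11, and Bax had 16, Mcl1 15, Bcl2 13 and Bid 12. The motif is not in every annotated coding transcript. It was in 1 of 3 for Bbc3, 1 of 2 for Bid, 3 of 4 for Bax, 4 of 5 for Bcl2l11 and 2 of 2 for Bcl2 and for Mcl1. The counts are per gene and do not separate these transcripts.

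Q344X retina had more messenger RNA of 3 pro-death genes and less of Bcl2. Among the 10 genes, Bbc3, Bax and Bid rose in Q344X, Bcl2 fell, and 6 did not pass the test (limma on log2 of the normalized count plus 1, Benjamini-Hochberg adjusted over 16833 genes, threshold 0.05). Of all tested genes, 5.46% were higher and 9.10% were lower in Q344X. The log2 fold change, Q344X minus WT, was above 0 in 9 of the 10 genes, with Bcl2 as the exception, against 51.2% of all tested genes. The median log2 fold change was 0.66 over the 10 genes and 0.02 over all tested genes. Q344X and WT libraries did not overlap in 9 of the 10 genes, all but Bad, against 63.1% of all tested genes. In 8 of these 9 the Q344X libraries were the higher ones, against 31.4% of all tested genes. In whole retina, fewer cells of a type and less RNA per cell cannot be told apart. The 4 calls lie close to the threshold, with adjusted p between 0.0340 and 0.0486, and all 4 were lost when variances were moderated without a mean-variance trend (adjusted p = 0.0566 to 0.0628) or when every gene above 0 was tested (0.0818 to 0.105).

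**Figure D1:**
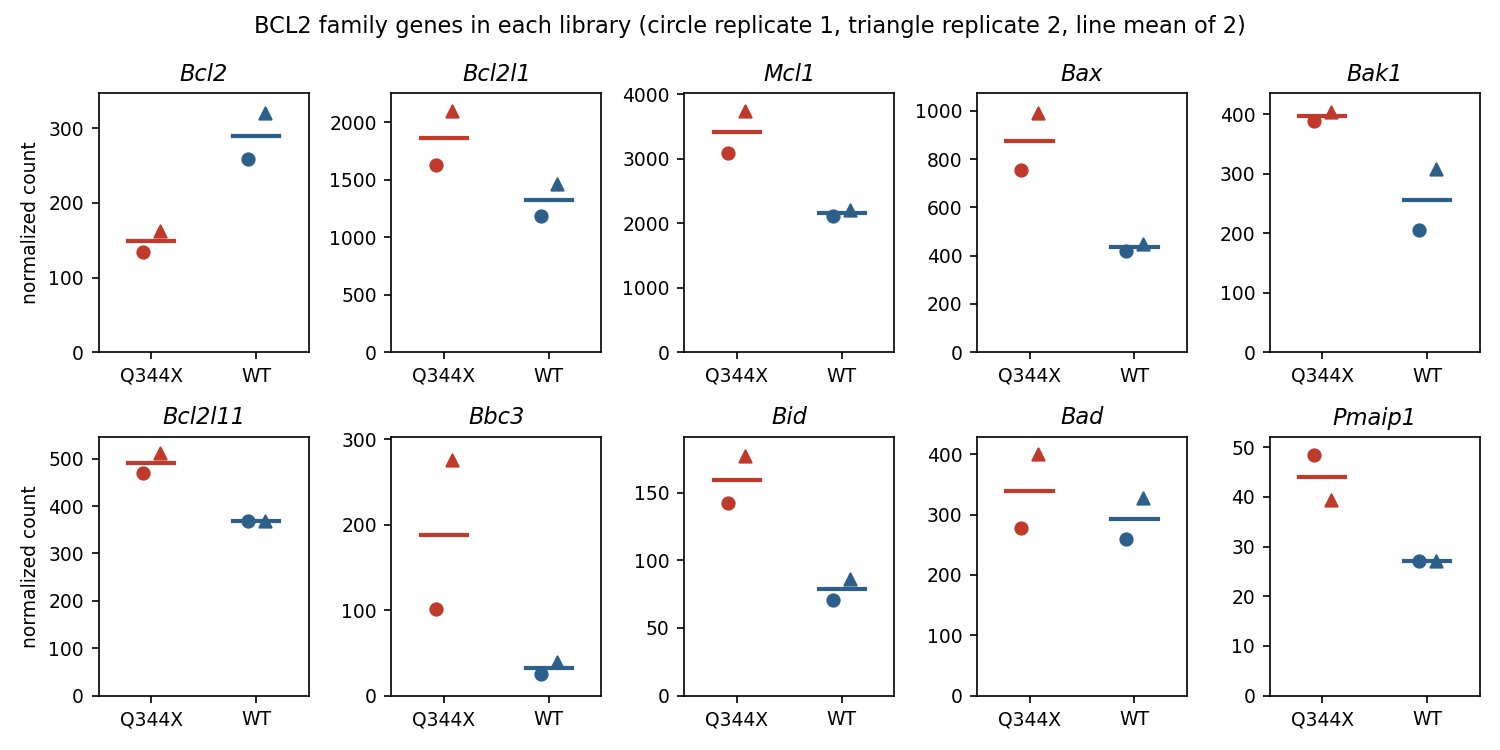
Normalized counts (vertical axes, each from 0) of the 10 BCL2 family genes in Q344X and WT libraries. Each point is 1 library and each line the mean of 2. Bcl2 is lower in both Q344X libraries, Bad overlaps between genotypes, and the other 8 genes are higher in both Q344X libraries.

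Of the 3 pro-survival genes, Bcl2 fell and the other two did not pass. Bcl2, the founding member, which blocks BAX and BAK activation (ENSMUSG00000057329, chromosome 1, 106538178 to 106714274, minus strand), had normalized counts of 135 and 162 in the Q344X libraries and 259 and 321 in the WT libraries. Both Q344X libraries were below both WT libraries. The means were 148 ± 19.5 in Q344X and 290 ± 43.8 in WT (SD, n = 2 each), a log2 fold change of -0.96 ± 0.23 (SE, adjusted p = 0.0449, limma). Adjusted p was 0.135 without WT replicate 1, 0.262 without WT replicate 2, 0.0688 with quantile normalization and 0.0874 with a correction for transcript length and GC content.

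Bcl2l1, which encodes BCL-X, the long form of which is pro-survival (ENSMUSG00000007659, chromosome 2, 152780668 to 152831728), had 1626 and 2095 normalized counts in Q344X libraries and 1185 and 1464 in WT libraries. The Q344X libraries were higher without overlap, but the lower of them was only 0.15 above the higher WT library on the log2 scale. The log2 fold change was 0.49 ± 0.22 (SE, adjusted p = 0.170, limma). Mcl1, a short-lived pro-survival protein (ENSMUSG00000038612, chromosome 3, 95658788 to 95663176), had 3084 and 3737 normalized counts in Q344X libraries and 2106 and 2208 in WT libraries. These groups did not overlap either, and the log2 fold change of 0.65 ± 0.18 did not pass (adjusted p = 0.0648, limma). Without Q344X replicate 1 both genes passed, Bcl2l1 with adjusted p = 0.0419 and Mcl1 with 0.0146, and Mcl1 passed with the length and GC correction (0.0369).

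Of the 2 effectors, Bax rose and Bak1 did not pass. Bax, which inserts into the outer mitochondrial membrane when activated (ENSMUSG00000003873, chromosome 7, 45461697 to 45466898, minus strand), had 754 and 992 normalized counts in Q344X libraries and 421 and 450 in WT libraries. The means were 873 ± 168 in Q344X and 436 ± 20.5 in WT (SD, n = 2 each), and the lower Q344X library was 0.74 above the higher WT library on the log2 scale. The log2 fold change was 0.99 ± 0.21 (SE, adjusted p = 0.0340, limma). Adjusted p was 0.173 without WT replicate 1 and 0.108 without WT replicate 2. With the correction for length and GC content the log2 fold change was 0.56 (adjusted p = 0.112, limma), the lowest value of the settings tried. Of its exons 12.2% are shared with Gm45808 on the same strand, which had 15.4 normalized counts at most in any library.

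Bak1, which is held at the membrane in healthy cells (ENSMUSG00000057789, chromosome 17, 27019810 to 27029009), had 389 and 404 normalized counts in Q344X libraries and 205 and 308 in WT libraries. The Q344X libraries were close to each other and above both WT libraries, which differed by 0.58 on the log2 scale. The log2 fold change of 0.66 ± 0.25 (SE) did not pass (adjusted p = 0.127, limma). Of its exons 18.2% overlap those of Ggnbp1 on the opposite strand, a gene at 126 and 105 normalized counts in Q344X libraries and 75.9 and 97.3 in WT libraries. Whether reads were counted by strand is not known here.

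Of the 5 BH3-only genes, Bbc3 and Bid rose and 3 did not pass. Bbc3, which encodes PUMA, a target of p53 that binds all pro-survival members (ENSMUSG00000002083, chromosome 7, 16308393 to 16318205, plus strand), had 101 and 275 normalized counts in Q344X libraries and 25.0 and 39.1 in WT libraries. These values correspond to 102 and 287 reads in Q344X and 24 and 39 reads in WT. The Q344X libraries differed more from each other than in any of the other 9 genes, by 1.44 on the log2 scale, and yet the lower of them was 1.35 above the higher WT library. The log2 fold change was 2.38 ± 0.52 (SE, adjusted p = 0.0363, limma), and 129 of the 16833 tested genes had a larger one. It was 1.66 without Q344X replicate 2 and 3.10 without Q344X replicate 1. It was 2.07 without WT replicate 1 and 2.69 without WT replicate 2. The call of Bbc3 was lost without a variance trend (adjusted p = 0.0581, limma) or without a filter on low values (0.105).

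Bid, which, once cleaved, links death receptors to mitochondria (ENSMUSG00000004446, chromosome 6, 120891930 to 120916853, minus strand), had 143 and 177 normalized counts in Q344X libraries and 70.7 and 86.2 in WT libraries. Both Q344X libraries were above both WT libraries, with means of 160 ± 24.1 in Q344X and 78.5 ± 11 in WT (SD, n = 2 each). The log2 fold change was 1.01 ± 0.25 (SE, adjusted p = 0.0486, limma), the call nearest to the threshold. Adjusted p was 0.290, 0.117 and 0.0934 without WT replicate 1, WT replicate 2 and Q344X replicate 2. It was 0.0546 with a minimum mean of 50, 0.0535 with scaling to the 75th percentile and 0.0508 with robust moderation. Of the exons of Bid, 17.7% overlap those of Bcl2l13 on the opposite strand, which had 1823 and 1598 normalized counts in Q344X libraries and 1431 and 1311 in WT libraries, so the value of Bid is uncertain as far as reads of the more abundant neighbour could be counted for it.

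Bcl2l11, which encodes BIM, a BH3-only protein of neuronal and lymphoid apoptosis (ENSMUSG00000027381, chromosome 2, 128126038 to 128162547), had 470 and 513 normalized counts in Q344X libraries and 369 and 368 in WT libraries. Replicates were close and the groups did not overlap, but the log2 fold change of 0.41 ± 0.18 (SE) did not pass (adjusted p = 0.168, limma). Pmaip1, which encodes NOXA, an antagonist of MCL1 (ENSMUSG00000024521, chromosome 18, 66458533 to 66465565), was the rarest of the 10 genes in WT, with 48.5 and 39.4 normalized counts in Q344X libraries and 27.0 and 27.1 in WT libraries. Its log2 fold change of 0.67 ± 0.31 (SE) did not pass (adjusted p = 0.184, limma). Bad, whose product is inactivated by survival kinases (ENSMUSG00000024959, chromosome 19, 6941861 to 6951899), had 278 and 401 normalized counts in Q344X libraries and 260 and 327 in WT libraries. Its groups overlapped, and its log2 fold change was 0.20 ± 0.26 (SE, adjusted p = 0.621, limma). Of its exons 20.5% overlap those of Gpr137 on the opposite strand.

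**Figure D2:**
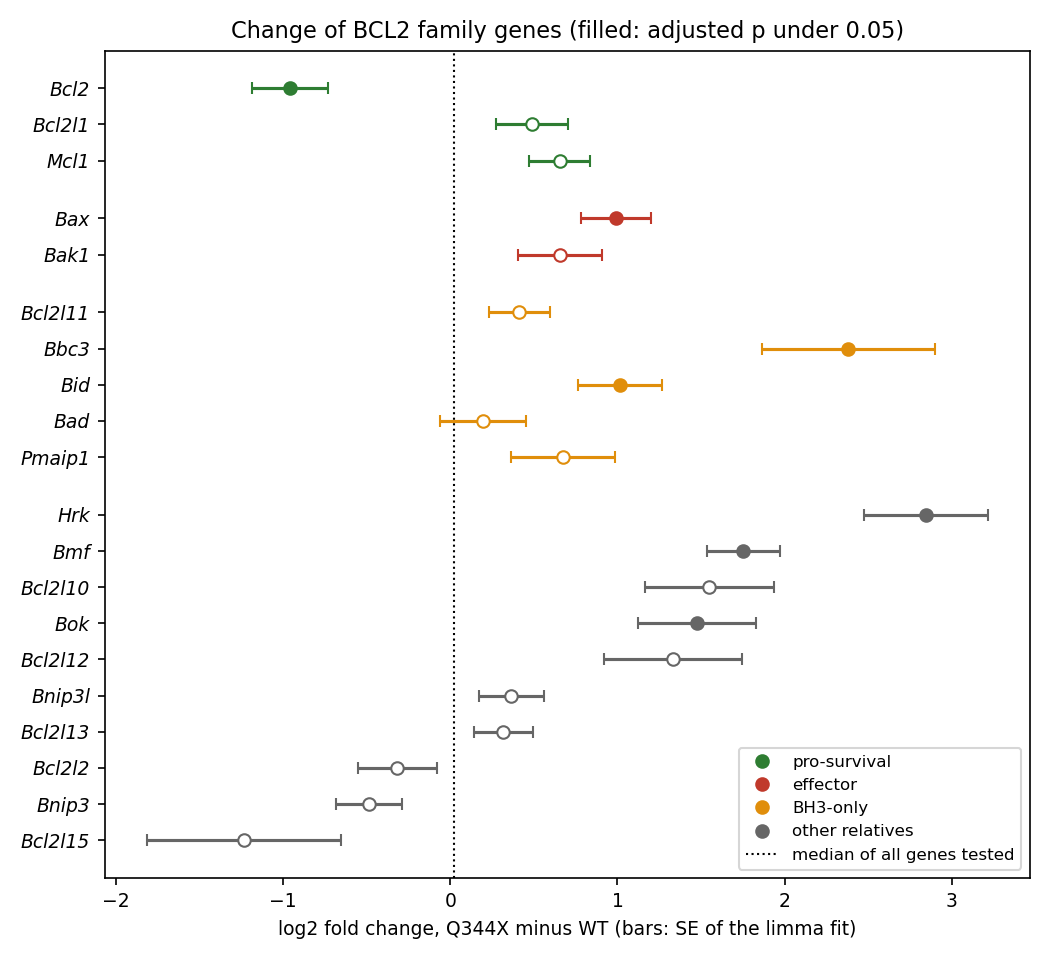
Log2 fold change, Q344X minus WT (horizontal axis), with SE from the limma fit, for the 10 BCL2 family genes by role and for 10 further tested relatives. Filled points passed an adjusted p of 0.05, among them Bcl2 at -0.96 on the low side and Bbc3 at 2.38 and Hrk at 2.84 on the high side, and the dotted line is the median of all tested genes at 0.02.

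The gaps between replicates were set beside the genotype differences. The median absolute log2 difference between the Q344X libraries was 0.30 over the 10 genes and 0.35 over all tested genes, and between the WT libraries it was 0.29 and 0.24. Replicate 2 was above replicate 1 in 9 of the 10 genes in Q344X, all but Pmaip1, and in 9 of the 10 in WT, all but Bcl2l11. Over all tested genes these shares were 50.6% in Q344X and 52.2% in WT. The replicate numbers follow the order of the accessions and pair no samples. In the 9 genes other than Bad the genotype difference was larger than either gap between replicates, whereas for Bad both gaps were larger.

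**Figure D3:**
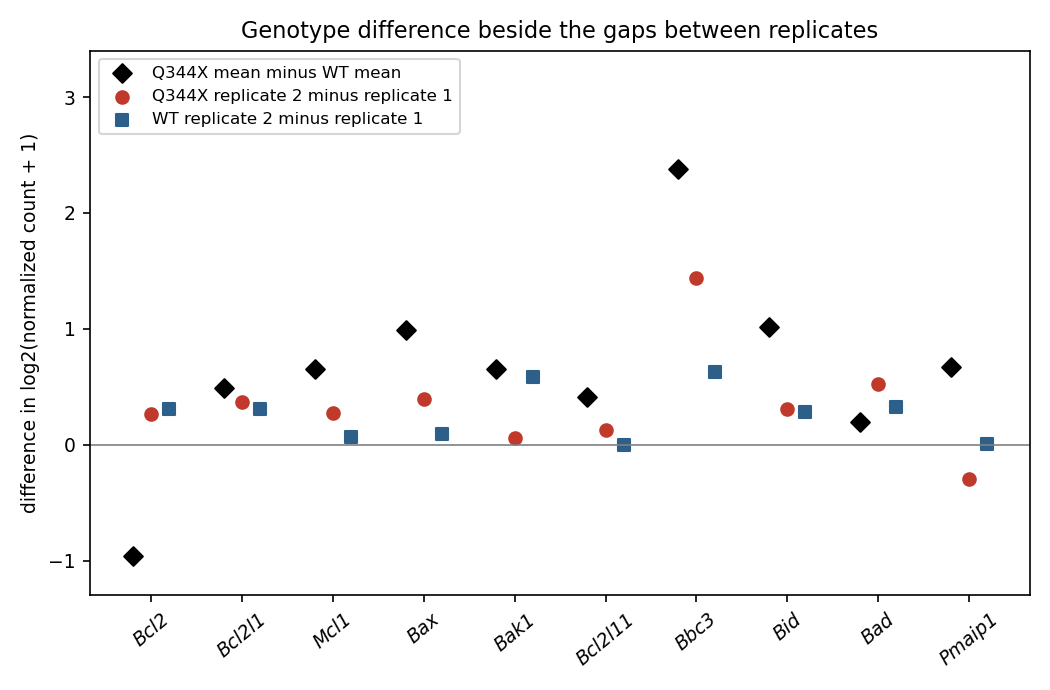
Difference in log2(normalized count + 1) on the vertical axis for each of the 10 genes, as the genotype difference (diamonds) and as the gap between the replicates of Q344X (circles) and of WT (squares). Bbc3 has the widest gap between Q344X libraries, 1.44, beside a genotype difference of 2.38.

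Levels were compared between genes as normalized counts per kilobase of annotated exon. Mcl1 was the highest of the 10 genes in both genotypes, with 998 ± 135 per kilobase in Q344X and 631 ± 21.1 in WT (SD, n = 2 each). In Q344X it was followed by Bax (554 ± 107), Bcl2l1 (406 ± 72.4) and Bak1 (165 ± 4.41), with no overlap between neighbours in this order. In WT, Bcl2l1 (289 ± 43.1) and Bax (276 ± 13.0) overlapped. Bbc3 was ninth of the 10 in WT, at 11.8 and 18.4 per kilobase, and sixth in Q344X, at 47.5 and 130, where it overlapped with Bad above it and Bcl2l11 below it. Bcl2 was seventh in WT, at 28.3 and 35.0 per kilobase, and ninth in Q344X, at 14.7 and 17.7, where it overlapped with Pmaip1.

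Ratios within a library showed the opposite moves of Bax and Bcl2. Bax stood 32.6-fold and 35.5-fold above Bcl2 per kilobase in the Q344X libraries, and 9.45-fold and 8.15-fold above it in the WT libraries. The mean ratio was 3.87 times higher in Q344X. With the length and GC correction the genes lay closer together, at log2 fold changes of 0.56 for Bax and -0.80 for Bcl2, and neither passed. Bcl2l1 stood 24.1-fold and 25.8-fold above Bcl2 in Q344X libraries and 9.13-fold and 9.11-fold above it in WT libraries. The ratios of Bax to the more abundant pro-survival genes moved less. Bax over Bcl2l1 was 1.35 and 1.38 in Q344X libraries and 1.03 and 0.89 in WT libraries, the mean in Q344X being 1.41 times that in WT. Bax over Mcl1 was 0.53 and 0.58 in Q344X libraries and 0.43 and 0.44 in WT libraries (1.26 times). No p is given for these ratios, since an exact permutation test of 2 against 2 libraries cannot go below 0.333.

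By role, the effectors took a larger share of the summed level per kilobase of the 10 genes in Q344X, before any length and GC correction. Effectors made up 29.3% and 28.7% of the sum in Q344X libraries and 24.4% and 25.2% in WT libraries. Pro-survival genes made up 58.2% and 56.4% in Q344X libraries and 62.5% and 61.0% in WT libraries. With the length and GC correction the log2 fold changes were 0.56 for Bax and 0.52 for Bak1. They were 0.71 for Mcl1, 0.38 for Bcl2l1 and -0.80 for Bcl2. The effectors thus no longer rose more than Mcl1, the largest part of the pro-survival sum, and the shares were not recomputed with that correction. The BH3-only share overlapped between genotypes, with 12.5% and 14.9% in Q344X libraries and 13.1% and 13.8% in WT libraries. This share covers 5 genes and leaves out the BH3-only genes Bmf and Hrk, which were higher in Q344X. Bmf had 988 and 1293 normalized counts in Q344X libraries and 307 and 365 in WT libraries. Within the BH3-only sum, Bbc3 took 17.4% and 31.3% in Q344X libraries and 6.21% and 8.14% in WT libraries. Within the pro-survival sum, Bcl2 took 1.2% and 1.1% in Q344X libraries and 3.13% and 3.50% in WT libraries. Bcl2 was thus a small part of the messenger RNA of these 3 pro-survival genes in both genotypes. Their sum was higher in Q344X, with 1271 and 1568 per kilobase in Q344X libraries and 903 and 1000 in WT libraries. This sum leaves out the pro-survival relative Bcl2l2, which had 2440 and 3300 normalized counts in Q344X libraries and 3073 and 4062 in WT libraries. The log2 fold change of Bcl2l2 was -0.32 ± 0.24 (SE, adjusted p = 0.386, limma).

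**Figure D4:**
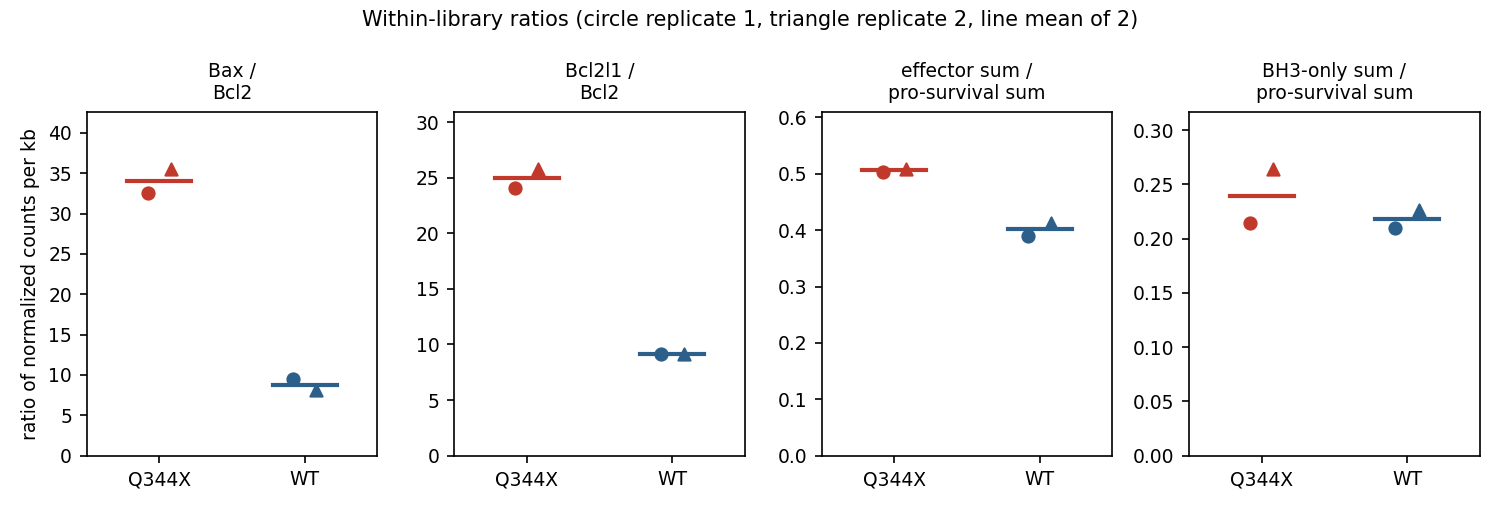
Ratios of normalized counts per kilobase within each library (vertical axes, each from 0), with 1 point per library and the mean of 2 as a line. Bax over Bcl2 is 32.6 and 35.5 in Q344X libraries and 9.45 and 8.15 in WT libraries. The ratio of BH3-only to pro-survival sums, over 5 and 3 genes, overlaps between genotypes.

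Some other relatives of the family rose too. Of 15 further BCL2-related genes, 10 passed the filter on low values, of which 3 rose, 0 fell and 7 did not pass (limma; 5 higher and 1 lower at an unadjusted p under 0.05). Over all tested genes, 5.46% were higher and 9.10% lower in Q344X. An unadjusted p under 0.05, in either direction, was found in 5833 of the 16833 tested genes (limma). The median log2 fold change of the 10 tested relatives was 0.85, and 3 of them had a value below 0. Hrk, a BH3-only gene of neurons, had 80.2 and 105 normalized counts in Q344X libraries and 9.36 and 15.0 in WT libraries, a log2 fold change of 2.84 ± 0.37 (SE, adjusted p = 0.0113, limma). Bmf, a BH3-only protein tied to the cytoskeleton, had 988 and 1293 normalized counts in Q344X libraries and 307 and 365 in WT libraries (1.75 ± 0.22, adjusted p = 0.0102). Both groups stood clear of each other in these genes. Bok, an effector-like relative, had 273 and 526 normalized counts in Q344X libraries and 119 and 155 in WT libraries (1.48 ± 0.35, adjusted p = 0.0456). Bok did not pass without WT replicate 1 (0.0974), with a minimum mean of 50 (0.0510) or when moderated without a trend (0.0735).

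Downstream of the mitochondrial step, 14 genes of caspases, their regulators and other death factors were tested. In limma 1 rose, 2 fell and 11 did not pass, with a median log2 fold change of 0.06. Against 5.46% higher and 9.10% lower among all tested genes, these counts do not set the list apart. The inhibitor genes Birc2, Birc3 and Birc5 did not pass (log2 fold changes of -0.23, -0.77 and 0.12), whereas Xiap, an inhibitor of caspases, fell. It had 6393 and 5985 normalized counts in Q344X libraries and 11346 and 12870 in WT libraries, without overlap (-0.97 ± 0.18, SE, adjusted p = 0.0254, limma). The call was lost when either WT library was left out (adjusted p = 0.106 for replicate 1 and 0.161 for replicate 2, limma). Of 12 partners at the outer mitochondrial membrane, 0 passed in limma (1 higher and 0 lower at an unadjusted p under 0.05). The channel gene Vdac1 had a log2 fold change of 0.27 ± 0.18 (SE, adjusted p = 0.340, limma), and the BAX inhibitor gene Tmbim6 -0.22 ± 0.20 (adjusted p = 0.468).

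The p53 pathway, which has Bbc3, Bax and Pmaip1 among its targets, was described through other p53 targets and regulators. Of 14 tested, Cdkn1a rose, Ccng1 fell and 12 did not pass (median log2 fold change 0.11), against 5.46% higher and 9.10% lower among all tested genes, so these counts do not set the list apart. Cdkn1a, the gene of the cell-cycle inhibitor p21, had 774 and 870 normalized counts in Q344X libraries and 84.2 and 94.2 in WT libraries (3.19 ± 0.20, SE, adjusted p = 0.00342, limma). Ccng1, another p53 target, had 1518 and 1313 in Q344X libraries and 2422 and 2642 in WT libraries (-0.84 ± 0.18, adjusted p = 0.0343), a call that was lost without WT replicate 1 (0.173) or 2 (0.216) and without a variance trend (0.0640). Trp53 itself had 308 and 347 normalized counts in Q344X libraries and 216 and 178 in WT libraries, a log2 fold change of 0.73 ± 0.21 that did not pass (adjusted p = 0.0697, limma); it was named after its value was seen. Of 10 tested transcription factors and stress genes upstream of BH3-only genes, Atf3 fell (-1.57 ± 0.34, adjusted p = 0.0358), 0 rose in limma (1 higher at an unadjusted p under 0.05) and 9 did not pass. Atf3, a stress-response factor, had 61.4 and 101 normalized counts in Q344X libraries and 192 and 287 in WT libraries, and its adjusted p was 0.0981 without WT replicate 2, 0.0593 with quantile normalization and 0.0550 without a variance trend.

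Of 7 genes that control the turnover of the MCL1 protein, 2 fell and 5 did not pass. Among all tested genes, 9.10% were lower and 5.46% higher in Q344X. Trim17, a ubiquitin ligase, had 49.5 and 30.7 normalized counts in Q344X libraries and 497 and 404 in WT libraries (-3.49 ± 0.30, SE, adjusted p = 0.00532, limma). Btrc, a substrate receptor of an SCF ubiquitin ligase, had 1818 and 1387 in Q344X libraries and 4080 and 3356 in WT libraries (-1.22 ± 0.22, adjusted p = 0.0233, and 0.102 without WT replicate 1). Protein stability was not measured. Without a filter on low values, 5 of the 9 calls named in these lists were lost, those of Bok, Xiap, Ccng1, Atf3 and Btrc (adjusted p = 0.0692 to 0.114, limma), whereas Hrk, Bmf, Cdkn1a and Trim17 passed under every setting tried.

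Promoter windows of 300 bases were searched for the letters that factors upstream of the family bind. RefSeq windows on GRCm38.p6, from 250 bases before to 50 after a start, were present for 9 of the 10 genes, 15 windows in all. On both strands, the letters TGTTTAC (the core bound by FOXO factors) were in 2 of the 15 windows, 1 of the 3 of Bbc3 and 1 of the 2 of Bcl2l11, and in 3.65% of all 32851 windows. The p53 decamer was searched as a single copy, with no further copy beside it required. It was in 1 of the 15 windows, at Bax, and in 8.36% of all windows. TGANTCA (the AP-1 core) and TGATGCAA (a CHOP and ATF core) were in 0 of the 15, and in 7.81% and 0.895% of all windows. No window held more than 1 of these motifs. Below are the 2 matching windows of genes that rose, with the matched letters in capitals. The match at Bbc3 begins at position -167 and that at Bax at -201, counted from the RefSeq start site. The last 50 bases of the Bax window occur in a GENCODE M21 coding transcript of the gene, and those of the Bbc3 window do not.
Bbc3 promoter (chr7:16310011-16310310, plus strand): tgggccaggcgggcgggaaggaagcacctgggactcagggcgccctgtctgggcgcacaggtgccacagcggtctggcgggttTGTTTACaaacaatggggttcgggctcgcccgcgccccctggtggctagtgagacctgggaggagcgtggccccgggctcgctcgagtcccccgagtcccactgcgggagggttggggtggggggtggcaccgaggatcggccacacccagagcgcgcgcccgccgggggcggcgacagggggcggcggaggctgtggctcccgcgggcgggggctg
Bax promoter (chr7:45466849-45467148, minus strand): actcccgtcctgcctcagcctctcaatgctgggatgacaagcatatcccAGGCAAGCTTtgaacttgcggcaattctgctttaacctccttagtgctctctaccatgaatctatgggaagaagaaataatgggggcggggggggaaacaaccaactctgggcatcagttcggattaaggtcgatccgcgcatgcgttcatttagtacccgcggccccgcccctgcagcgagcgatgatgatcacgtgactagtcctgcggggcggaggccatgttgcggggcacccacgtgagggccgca

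A match describes letters in a window and shows no binding. The FOXO genes Foxo1 and Foxo3 had log2 fold changes of 0.19 and -0.25, neither past the threshold (limma; both named after their values were seen). The Bbc3 window has a GC content of 74.7% and the Bax window 57.3%, against a median of 52.7% over all windows.

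The tissue label was checked with marker lists, and the rod and cone markers that define the retina were present in both genotypes. All 13 rod markers were tested, and their summed normalized counts were 424673 and 503856 in Q344X libraries and 1025816 and 1177902 in WT libraries, with 3 lower, 0 higher and 10 not past the threshold. Of 9 cone markers, 5 fell and 4 did not pass. At an unadjusted p under 0.05, 7 rod and 6 cone markers were lower and 0 of either list higher (limma). Such a p was common, with 5833 of the 16833 tested genes under 0.05 in either direction (limma). The unadjusted counts of all marker lists are to be read beside that number. Of 9 ganglion cell markers 2 rose, and all 9 had a log2 fold change above 0, with a median of 0.74 and 7 higher at an unadjusted p under 0.05 (limma). Of 8 bipolar markers 2 rose (median 0.48), and of 8 Müller glia markers 1 fell (median -0.16). Of 6 endothelial markers 1 rose (median 0.74), and of 6 tested pigment epithelium markers 3 rose (median 0.72). Of 7 amacrine markers 1 fell (median -0.0029), and of 5 blood markers 2 fell (median -1.69). At an unadjusted p under 0.05, 4 bipolar markers were higher and 1 lower, and 4 endothelial markers were higher and 0 lower (limma). The medians of the ganglion cell, endothelial and pigment epithelium markers were thus about as high as the 0.66 of the BCL2 family genes. Of 8 microglia and 5 horizontal cell markers 0 passed in limma (0 at an unadjusted p under 0.05 in either list), and the microglia sums were 1485 and 1693 in Q344X libraries and 1558 and 1319 in WT libraries. Lens genes set Q344X replicate 2 apart, since the sum of 7 crystallin and other lens genes was 196023 and 5864 in Q344X libraries and 211647 and 260857 in WT libraries. Without that library Bcl2 (adjusted p = 0.0142), Bax (0.0366) and Bbc3 (0.0132) passed and Bid did not (limma). The 20 ribosomal protein genes all had a log2 fold change, Q344X minus WT, above 0, with a median of 0.79, above the 0.66 of the BCL2 family genes. Of these 20, 3 passed the test and 14 were higher at an unadjusted p under 0.05 (limma), and their median log2 difference between Q344X replicates 2 and 1 was 0.64. The part of cell composition and of RNA quality in the changes of the BCL2 family was not tested.

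**Figure D5:**
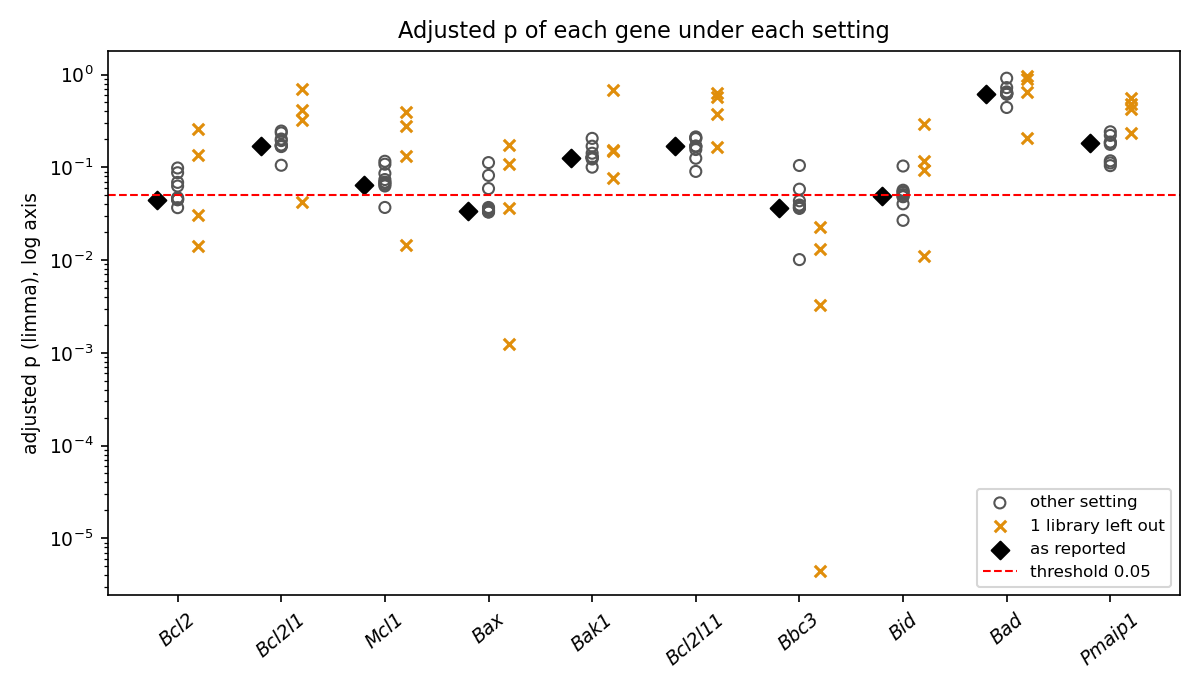
Adjusted p from limma (vertical axis, logarithmic) for each of the 10 genes as reported (diamonds), under 9 other settings (circles; 8 for Pmaip1) and with 1 library left out (crosses), with the threshold of 0.05 as a dashed line. Crosses come from fits with 1 library alone in its group. Those for Bcl2, Bcl2l1, Mcl1, Bax and Bid fall on both sides of the line, as do the circles for Bbc3, Bax, Bcl2, Bid and Mcl1.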

How the data were processed

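Retinal polyadenylated RNA of 2 Q344X and 2 WT libraries was sequenced on an Illumina HiSeq instrument with a directional library kit, per the labels' protocols. The values the authors deposited are a signal: the count of each gene over its library's size factor. Per the submitters' processing notes, build mm10 was used with STAR, featureCounts, DESeq2 1.16.1, Trim Galore 0.4.4 and FastQC. Which annotation and which strand setting served for counting is not given there. Every value above 0 was a multiple, within 0.1, of the worth of 1 read, which gave 19034261 and 19346580 reads in genes for the Q344X libraries and 18452679 and 19706573 for the WT libraries. In 2 libraries 1 read is worth too close to 1 for a unit check of this, so no count model was fitted.

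Symbols, positions and exon lengths are those of GENCODE M21 (GRCm38, also called mm10), with 52489 of 52636 identifiers matched. Genes with a mean of at least 10 normalized counts were tested, 16833 in all and the 10 family genes among them, in R 4.3.3 with limma 3.58.1: log2(normalized count + 1) on genotype, moderated variances with a trend (2 residual and 3.90 prior degrees of freedom), two-sided, Benjamini-Hochberg adjustment over all tested genes. On the log2(value + 1) scale the fold change of a low gene is understated. The family genes and the gene lists were chosen with earlier results of these data known. In each list the genes past the threshold were named (up to 5, largest change first), or else the 2 with the highest mean. Some genes picked by this rule are not reported here. The alternatives tried were quantile normalization, 75th percentile scaling, a minimum mean of 50 or no filter, pseudocounts of 0.5 and 5, moderation without trend or robust, leaving out each library, another gene length for levels, and, chosen after seeing the data, a loess correction for transcript length and GC content.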

Additional observations from a re-analysis of the deposited data

How the results depend on the processing

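Of the family genes' log2 fold changes under the other settings, 104 kept direction and side of the threshold, 21 lost a call, 3 gained a call and 1 turned, that of Bad, which ran from -0.067 without Q344X replicate 2 to 0.46 without Q344X replicate 1. The counts of family genes that rose and fell were 0 and 0 without a filter on low values and 0 and 0 without a variance trend (limma; unadjusted p under 0.05 in 5 higher and 1 lower in each). The count that fell was 0 under quantile normalization and 0 with the length and GC correction (unadjusted, 1 in each). Among all genes tested, an unadjusted p under 0.05 in either direction came up in 7513 of 30816 without a filter (limma). It came up in 5491 of 16833 without a variance trend (limma). With 1 library left out, 1 to 5 family genes rose and 0 to 1 fell, 1 rising and 0 falling without either WT library. Over all genes, 153 were higher and 383 lower without a filter, 388 to 2353 were higher and 666 to 2973 lower with 1 library left out, and 1693 were higher with the length and GC correction. A fit without 1 library takes its variance from the intact pair, and the lone library is assumed to vary like it. With the length of the longest transcript, Bax over Bcl2 was 38.3 in Q344X and 9.90 in WT, effectors over pro-survival genes 0.550 in Q344X and 0.424 in WT, and BH3-only over pro-survival genes 0.287 in Q344X and 0.273 in WT. The cause of the lost calls was not tested. No paired analysis was possible because the labels give no replicate numbers. Pmaip1 did not reach the minimum mean of 50. The rarest genes rest on few reads, 26 and 27 for Pmaip1 in WT.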
